A study of Mus musculus with 21 samples.

Results

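The 48 genes described here code for the machinery that copies DNA and for enzymes that supply its building blocks: the origin recognition complex (Orc1 to Orc6), the licensing factors Cdc6 and Cdt1 with geminin (Gmnn), the inhibitor of Cdt1, the MCM helicase (Mcm2 to Mcm7), the factors that start it, the replicative polymerases, the sliding clamp and its loader, the single-strand binding protein RPA, the enzymes that join Okazaki fragments, and the nucleotide and uracil enzymes Ung, Dut, Tyms, Tk1, Rrm1 and Rrm2. They were taken by gene symbol from a list drawn up with earlier results of these data known. All 48 were found among the 22483 genes of the deposited tables, and all 48 were among the 12360 genes with enough counts to be tested.

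Polyadenylated RNA had been sequenced from MEDEP cells, a line of erythroid progenitors grown from mouse embryonic stem cells, here the single line BRC5. Cells at 72, 48, 36, 24 and 12 h of differentiation, in medium without stem cell factor (SCF) or dexamethasone and with 4 U/ml erythropoietin (Epo), were compared with each other and with cells at 0 h, which were still proliferating with SCF and dexamethasone. At 12 h a further group had been given succinyl acetone (SA), a blocker of heme synthesis, on top of Epo, and it was compared with 12 h cells without it. Each of the 7 groups held 3 biological replicates, and p-values therefore measure the spread among cultures of 1 cell line.

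Replication begins at origins bound by the origin recognition complex, where Cdc6 and Cdt1 load the MCM helicase in G1. In S phase Cdc45 and the GINS complex join the helicase, polymerase alpha-primase lays down primers, and polymerases delta and epsilon extend them with the clamp PCNA, which the RFC complex loads. Ribonucleotide reductase, made of Rrm1 and Rrm2, turns ribonucleotides into deoxyribonucleotides, thymidylate synthase (Tyms) and thymidine kinase (Tk1) feed thymidine nucleotides, and Dut and Ung keep uracil out of DNA. Maturing erythroblasts pass through a last few rapid divisions and then leave the cell cycle before they lose the nucleus, and many replication genes are switched on by E2F transcription factors at entry into S phase.

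The libraries held 16.7 to 39.3 M estimated counts each. The 11 erythroid markers summed to 802441 to 893700 TPM (transcripts scaled to a common total per library) at 72 h, against 1797 to 2534 TPM at 0 h, and globin genes took 35.2 ± 3.07% of the estimated counts at 72 h against 0.0613 ± 0.0143% at 0 h (errors are SD over 3 libraries). The 7 pluripotency markers summed to less than 1 TPM in every library, with Sox2 at 0 in all groups. The 6 megakaryocyte and platelet markers summed to 12.8 TPM at the lowest (0 h) and 170.5 TPM at the highest (48 h), the 5 mast cell markers to 3.48 to 22.8 TPM, and the 10 stromal markers to at most 3.25 TPM. Macrophage, neutrophil and lymphocyte markers summed to at most 2.32, 2.43 and 1.56 TPM. The part of these RNAs in the changes below was not tested. In bulk RNA, fewer cells that replicate DNA and less replication mRNA per cell cannot be told apart.

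Of the 48 members, 40 had at least 1 promoter (250 bases before to 50 after the start site, 300 in all) in the RefSeq table of build GRCm38.p6. An E2F motif (TTTCCCGC, TTTGGCGC, TTTCGCGC or TTTGCCGC, read on both strands) was present in 15 of these 40 genes (37.5%), against 2.605% of all 27025 genes in the table. The promoters of 4 MCM subunits are shown first, chosen because they hold from 2 to 3 matches each. Mcm2 had no match and Mcm4 had no promoter in the RefSeq table. All of Mcm2 to Mcm7 fell at 36 h, and the part of the motif in this was not tested. Then comes Cdc6, the member that rose most at 12 h, with 1 match. Last is Rrm2, the member that kept the most transcript at 72 h, with none. Each runs 5′ to 3′ on the gene's own strand in lower case, with E2F matches in capitals. Neighbouring matches overlap in Mcm5 and in Mcm6 and run together there. The regions are, in the same order, chr1:20820263-20820562 (minus strand), chr8:75109259-75109558 (plus), chr1:128359656-128359955 (minus), chr5:138171834-138172133 (minus, the first of 2 promoters), chr11:98907901-98908200 (plus) and chr12:24708004-24708303 (plus).
Mcm3: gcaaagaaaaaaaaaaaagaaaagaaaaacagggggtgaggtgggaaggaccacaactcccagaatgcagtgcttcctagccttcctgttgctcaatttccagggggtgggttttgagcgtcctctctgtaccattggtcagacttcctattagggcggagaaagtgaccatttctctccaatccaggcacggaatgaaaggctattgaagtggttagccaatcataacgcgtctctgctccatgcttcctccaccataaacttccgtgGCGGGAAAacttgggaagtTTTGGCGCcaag
Mcm5: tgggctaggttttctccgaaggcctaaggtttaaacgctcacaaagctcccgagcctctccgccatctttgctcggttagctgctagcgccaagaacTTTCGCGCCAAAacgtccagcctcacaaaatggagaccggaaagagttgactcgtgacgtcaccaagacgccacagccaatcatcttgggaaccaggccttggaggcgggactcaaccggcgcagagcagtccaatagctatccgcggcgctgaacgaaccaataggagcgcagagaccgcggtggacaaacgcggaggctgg
Mcm6: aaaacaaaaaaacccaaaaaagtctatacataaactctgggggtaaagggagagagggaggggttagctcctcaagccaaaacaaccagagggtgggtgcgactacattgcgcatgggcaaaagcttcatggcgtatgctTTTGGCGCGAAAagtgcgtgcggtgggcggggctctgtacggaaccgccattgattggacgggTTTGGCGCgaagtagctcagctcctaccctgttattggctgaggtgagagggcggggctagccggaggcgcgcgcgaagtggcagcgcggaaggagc
Mcm7: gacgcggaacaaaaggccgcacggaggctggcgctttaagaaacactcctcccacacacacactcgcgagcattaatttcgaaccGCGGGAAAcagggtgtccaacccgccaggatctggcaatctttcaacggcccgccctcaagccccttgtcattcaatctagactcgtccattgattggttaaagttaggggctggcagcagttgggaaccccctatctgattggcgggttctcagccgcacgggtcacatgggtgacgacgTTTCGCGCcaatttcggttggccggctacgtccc
Cdc6: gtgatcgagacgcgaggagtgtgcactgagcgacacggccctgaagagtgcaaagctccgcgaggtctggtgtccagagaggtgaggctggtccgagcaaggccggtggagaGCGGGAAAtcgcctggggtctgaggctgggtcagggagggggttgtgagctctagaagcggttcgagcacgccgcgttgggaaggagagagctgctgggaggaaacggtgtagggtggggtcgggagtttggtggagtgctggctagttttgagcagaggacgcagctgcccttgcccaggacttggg
Rrm2: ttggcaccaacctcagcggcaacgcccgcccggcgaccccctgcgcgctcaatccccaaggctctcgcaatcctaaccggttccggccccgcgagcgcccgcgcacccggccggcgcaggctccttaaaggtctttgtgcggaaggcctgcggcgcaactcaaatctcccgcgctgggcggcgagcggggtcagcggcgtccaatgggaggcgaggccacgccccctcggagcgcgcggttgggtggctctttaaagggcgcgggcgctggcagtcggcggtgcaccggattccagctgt

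Other short motifs were also counted in these windows. The NF-Y box (CCAAT, both strands) was present in 60.0% of the 40 genes and in 41.1% of all genes, and the GC box (GGGCGG, both strands) in 77.5% and 38.2%. The CHR element (TTTGAA, both strands), known from genes of G2 and mitosis, was present in 12.5% of the 40 genes and in 20.2% of all genes. The members' promoters had a median GC content of 60.7%, against 52.7% for all 32851 promoters. A match describes letters in the window, and its absence, as in Rrm2, says only that these letters are not there.

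Transcript levels of most members were held or raised to 24 h and then lost. Levels are given as normalized CPM, which are depth-scaled counts (CPM) after adjusting each library by the trimmed mean of M-values (TMM), and changes are log2 ratios with their standard error (SE) from edgeR's quasi-likelihood test. At 12 h against 0 h, 11 members were called higher and 7 lower (25.3% and 27.6% of all tested genes), with a median change of 0.08. At 24 h against 12 h, 22 were called higher and 2 lower (19.1% and 22% of all tested genes), with a median of 0.32. The count against the start was 30 higher and 6 lower at 24 h (32.1% and 33.9% of all tested genes), with a median of 0.40. All of these medians stand beside medians between -0.01 and 0.03 for all tested genes on this scale.

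The loss began at 36 h. Against 24 h, 46 members were called lower and 2 higher (39% and 34.1% of all tested genes), and the median member fell to a log2 change of -1.43. At 48 h against 36 h, 44 were lower and 0 higher (29.7% and 20% of all tested genes); edgeR called 0 higher at an unadjusted p under 0.05 as well, and DESeq2 called 0. At 72 h against 48 h, 39 were lower and 2 higher (34.5% and 24.7% of all tested genes). The medians of these later steps were -1.11 and -1.12, beside -0.07 and -0.05 for all tested genes (-0.03 at 36 h against 24 h). Over the whole course, 46 members were lower and 2 higher at 72 h than at 0 h (46.5% and 43.3% of all tested genes), with a median of -3.31 against -0.13 for all tested genes.

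The rise depended on the scale, and the loss was called on both, although most genes were lower late in TPM. On the TPM scale the median of all tested genes moved by -0.32 at 24 h against 12 h, by -1.84 at 36 h against 24 h and by -3.26 at 72 h against 0 h. The members' TPM medians for the same steps were 0.00, -3.16 and -5.53. With limma on log2(TPM + 1), 5 members were called higher and 5 lower at 12 h against 0 h (20.9% and 31.1% of the 9525 genes of that fit), and 1 higher and 5 lower at 24 h against 12 h (6.32% and 45%). There were 9 higher and 13 lower at 24 h against 0 h (18.8% and 52.7%), a share higher near that of all genes. At 72 h against 0 h, 0 were higher and 48 lower (5.26% and 90.9%), a share near that of all genes. Changes in normalized CPM thus describe a gene against the bulk of expressed genes, and changes in TPM describe its share of all transcripts in a library.

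By group mean of normalized CPM, 35 of the 48 members were highest at 24 h, 10 at 0 h (Orc5, Cdt1, Pola2, Pold1, Pold2, Pole, Rfc5, Rpa3, Ung and Dut), 2 at 12 h (Orc3 and Rfc3) and Orc4 at 72 h. On the TPM scale 19 were highest at 24 h, 16 at 0 h and 13 at 12 h. The lowest mean stood at 72 h for 44 members. The exceptions were Pola2 and Rpa1, lowest at 48 h, and Orc4 and Rrm2, lowest at 0 h.

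**Figure D1:**
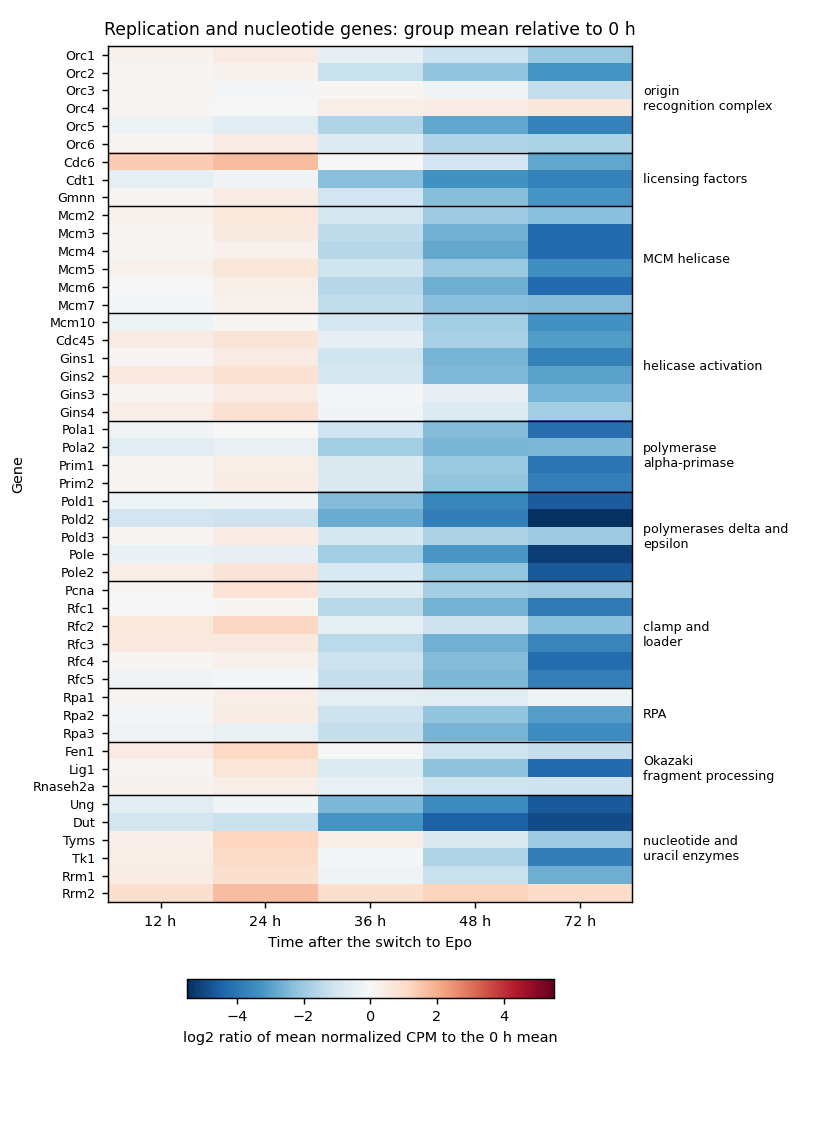
Group mean of normalized CPM of each of the 48 genes at 12, 24, 36, 48 and 72 h as a log2 ratio to the 0 h mean (colour), with genes in rows and grouped by role (black lines). Most rows are red or pale to 24 h and blue from 36 h on, whereas Rrm2 and Orc4 stay red at 72 h; on the TPM scale these 2 are lower at 72 h than at 0 h.

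The subunits of the origin recognition complex, which marks origins, did not share a single course. Orc2 fell at 36 h to 59.5, 47.7 and 64.8 normalized CPM in the 3 replicates, against 157, 150.3 and 147 at 24 h, a log2 change of -1.41 ± 0.12 (edgeR adjusted p = 1.06e-09). All 36 h values lay below all 24 h values. Orc4 did the opposite on this scale, with 37.4, 38.9 and 35.9 normalized CPM at 36 h against 28.6, 30.2 and 30.7 at 24 h, a log2 change of 0.33 ± 0.07 (edgeR adjusted p = 0.000342), while on the TPM scale it changed by -1.35 beside a median of -1.84 for all tested genes.

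Orc4 ended at 45.3, 46.7 and 41.9 normalized CPM at 72 h, against 28.1, 30.8 and 28.5 at 0 h. The groups did not overlap, and the log2 change was 0.62 ± 0.07 (edgeR adjusted p = 6.07e-08); in TPM it was -2.74, and Orc4 kept 13.6% of its 0 h TPM. Exons of Orc4 overlap those of Acvr2a and Mbd5 on the opposite strand, and whether the counting used strand is not given in the sources used here. Its last step was small: it had 39.4, 35.8 and 39.3 at 48 h, below all 72 h values, and the change was 0.23 ± 0.07 (edgeR adjusted p = 0.0108), 0.17 (adjusted p = 0.0738) without replicate 2 of 48 h and 0.18 (adjusted p = 0.0576) without replicate 2 of 72 h.

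Orc3 had lost little by 48 h, with 50.2, 44.8 and 46.6 normalized CPM at 48 h against 56.2, 54.8 and 52.2 at 0 h. Its values were 58.4, 57.9 and 56.7 normalized CPM at 36 h and 46.2, 55.0 and 49.9 at 24 h, without overlap, and the rise of 0.20 ± 0.07 (edgeR adjusted p = 0.0205) on this scale was a change of -1.75 in TPM. The call also rested on single libraries: the change was 0.13 (adjusted p = 0.158) without replicate 1 of 24 h, 0.18 (adjusted p = 0.0734) without replicate 3 of 24 h, 0.18 (adjusted p = 0.0726) without replicate 1 of 36 h and 0.18 (adjusted p = 0.056) without replicate 2 of 36 h. At 72 h Orc3 held 40.9% of its 0 h level. Orc5 began to fall before the others: it had 35.6, 37.9 and 36.9 normalized CPM at 24 h against 52.9, 57.9 and 57.6 at 0 h, a change of -0.61 ± 0.10 (edgeR adjusted p = 1.73e-05) with no overlap. It was the only member of the complex called lower at 24 h against 0 h, and it kept 7.59% at 72 h. Orc1 and Orc6 were called higher at 24 h against 0 h on this scale and ended at 24.4% and 29.8%.

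Cdc6, the ATPase that helps load the MCM helicase, rose more at 12 h than any other member. It had 179.8, 169.6 and 173 normalized CPM at 12 h, against 68.5, 64.0 and 66.3 at 0 h. The lowest 12 h value was far above the highest 0 h value, and the log2 change was 1.39 ± 0.13 (edgeR adjusted p = 1.22e-08). Cdt1, which works with Cdc6 in loading, went the other way. It had 42.6, 41.4 and 39.7 normalized CPM at 12 h against 62.0, 54.7 and 59.9 at 0 h, a change of -0.51 ± 0.10 (edgeR adjusted p = 0.000185), also without overlap. Gmnn, the inhibitor of Cdt1, had 37.6, 38.9 and 32.8 at 12 h and 36.5, 32.6 and 32.2 at 0 h, which overlapped, and its change of 0.11 was not called (edgeR adjusted p = 0.431).

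The ratio of Gmnn to Cdt1 therefore moved early. In TPM it was 2.05 ± 0.115 at 0 h, 3.20 ± 0.185 at 12 h, 3.11 ± 0.330 at 24 h, 5.13 ± 0.930 at 36 h, 4.33 ± 0.775 at 48 h and 3.17 ± 0.272 at 72 h (errors are SD over 3 libraries). It was thus lowest at 0 h and highest at 36 h. These mRNA ratios carry no measure of the proteins, whose levels are known to be set largely by degradation. At 36 h both licensing factors and Gmnn were lower than at 24 h, with log2 changes of -1.71 for Cdc6, -2.11 for Cdt1 and -1.47 for Gmnn. Cdc6 fell again, with a change of -1.80, at 72 h against 48 h.

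The MCM subunits, which form a ring in equal numbers, kept similar levels to 24 h and had begun to part by 48 h. At 12 h against 0 h their changes ran from -0.12 (Mcm7) to 0.25 (Mcm5) and were not called; the lowest edgeR adjusted p was 0.0829 (Mcm2). With the compared libraries fitted alone Mcm5 was called higher, at 0.29 (adjusted p = 0.000921). At 24 h against 12 h Mcm2, Mcm3 and Mcm7 were called higher, with changes of 0.38, 0.45 and 0.35, which were not called in TPM (0.07, 0.14 and 0.02). At 36 h against 24 h all 6 were lower, from -1.90 (Mcm3) to -1.59 (Mcm2). Mcm3 had 10.2, 7.92 and 12.5 TPM at 36 h against 170.3, 153 and 158 TPM at 24 h. Mcm7 had 20.4, 18.7 and 27.4 TPM at 36 h against 278, 267 and 273 TPM at 24 h. No 36 h library reached the lowest 24 h library in either gene.

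After 48 h, Mcm2 and Mcm7 lost little and the other 4 went on falling. Mcm7 had 49.4, 52.4 and 44.3 normalized CPM at 72 h and 48.1, 45.8 and 56.9 at 48 h, which overlapped. Its change was -0.04 ± 0.10 (edgeR adjusted p = 0.722) on this scale. With limma on TPM rescaled between libraries it was called higher, at 0.38 (adjusted p = 0.00273). Mcm3 had 7.22, 8.04 and 10.9 normalized CPM at 72 h against 25.9, 24.1 and 31.3 at 48 h, a change of -1.63 ± 0.13 (edgeR adjusted p = 2.32e-09). Mcm4, Mcm5 and Mcm6 changed by -1.43, -1.30 and -1.58, all called lower. Mcm2 had 63.2, 56.2 and 52.9 at 72 h against 63.2, 65.1 and 84.6 at 48 h, a change of -0.30 ± 0.11 (edgeR adjusted p = 0.0204), with the highest 72 h value next to the lowest 48 h value. That call was lost without replicate 3 of 48 h, at -0.17 (adjusted p = 0.148), without replicate 3 of 72 h, at -0.26 (adjusted p = 0.0687), and with DESeq2 size factors, at -0.17 (adjusted p = 0.193).

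The ratio of the most to the least abundant subunit, in TPM, was wider at 48 h than before and widest at 72 h. It was 2.09 ± 0.0993 at 0 h, 1.85 ± 0.0486 at 12 h, 1.81 ± 0.0365 at 24 h, 2.23 ± 0.236 at 36 h, 3.11 ± 0.313 at 48 h and 11.8 ± 3.35 at 72 h (errors are SD over 3 libraries). Relative to 0 h, Mcm2 kept 20.3% and Mcm7 19.4% of their normalized CPM at 72 h, whereas Mcm3, Mcm4 and Mcm6 kept 5.10%, 5.20% and 5.17% and Mcm5 9.72%. Exons of Mcm7 overlap Cops6 and Ap4m1 on the opposite strand, and Mcm2 has no such overlap in the annotation. The E2F matches printed above were present in Mcm3, Mcm5, Mcm6 and Mcm7. Mcm2 had no match, and Mcm4 had no promoter in the RefSeq table. The part of the motif in these differences was not tested.

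**Figure D2:**
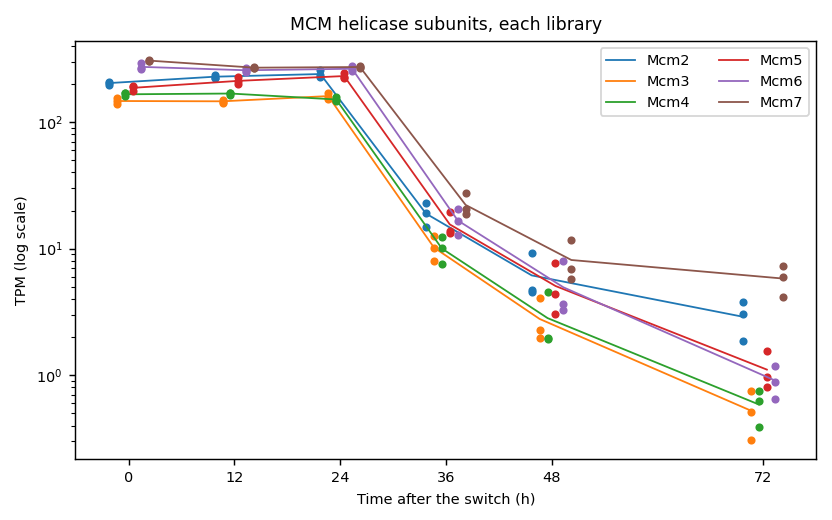
TPM (log axis) of the 6 MCM subunits against time, with a point for each of the 3 libraries per time and a line through the means; genes are shifted sideways so that points can be told apart. The lines lie close together to 36 h, and at 72 h Mcm7 (4.13 to 7.31 TPM) and Mcm2 (1.87 to 3.78 TPM) lie above the other 4.

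The factors that turn the loaded helicase into a moving one rose in part at 12 h. Gins2 and Gins4, subunits of GINS, and Cdc45 were called higher at 12 h against 0 h. Gins2 had 25.2, 21.9 and 20.4 normalized CPM at 12 h against 16.7, 15.2 and 14.5 at 0 h, a change of 0.54 ± 0.11 (edgeR adjusted p = 0.000353). Cdc45 had 55.6, 53.5 and 53.5 at 12 h against 41.3, 40.8 and 38.2 at 0 h, a change of 0.44 ± 0.12 (edgeR adjusted p = 0.00309). Neither pair of groups overlapped. Exons of Gins2 and of Cdc45 share bases with genes on the opposite strand. Gins4 was 0.37 higher at 12 h and 0.83 higher at 24 h against 0 h, each with an SE of 0.06. In TPM the 12 h calls of Cdc45, at 0.40 (adjusted p = 0.0529), and Gins4, at 0.33 (adjusted p = 0.0781), missed the threshold.

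At 36 h against 24 h the helicase activators had a median change of -1.14 beside -1.81 for the MCM ring. Gins3 fell least, to 9.34, 11.2 and 12.6 normalized CPM at 36 h against 16.6, 16.1 and 16.5 at 24 h, a change of -0.57 ± 0.15 (edgeR adjusted p = 0.00179), or -0.32 (adjusted p = 0.0805) with rescaled TPM. At 48 h against 36 h its change of -0.37 missed the threshold (edgeR adjusted p = 0.0678); it passed in TPM, at -0.61 (adjusted p = 0.00205), with the replicate block, at -0.37 (adjusted p = 0.049), without replicate 1 of 36 h, at -0.48 (adjusted p = 0.0298), and without replicate 3 of 48 h, at -0.52 (adjusted p = 0.0155). Its largest loss on this scale came last, with 1.33, 1.75 and 2.94 at 72 h against 7.43, 7.95 and 10.5 at 48 h, a change of -2.09 ± 0.20 (edgeR adjusted p = 2.58e-08) with no overlap; in TPM that step was -0.92, and the largest was at 36 h (-2.22). Gins2 changed by -1.80 at 36 h against 24 h. At 72 h Gins1 was at 7.50%, Gins2 at 13.2%, Gins3 at 16.9% and Gins4 at 27.1% of the 0 h level, and Gins1 rested on 9 to 24 estimated counts. Mcm10, which helps start unwinding, kept 9.99% and Cdc45 11.9%.

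Polymerase alpha-primase makes the RNA-DNA primers. Of its subunits, the B subunit Pola2 was called lower at 12 h against 0 h. Pola2 had 52.8, 49.4 and 48.2 normalized CPM at 12 h against 83.3, 75.1 and 75.0 at 0 h, a change of -0.63 ± 0.11 (edgeR adjusted p = 4.97e-05) with no overlap. The catalytic subunit Pola1 and the primase subunits Prim1 and Prim2 changed by -0.20, 0.05 and 0.08, which were not called; with the compared libraries fitted alone Pola1 was called lower, at -0.17 (adjusted p = 0.0089). At 24 h against 0 h both primase subunits were called higher on this scale, although the TPM median of the complex was -0.19.

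The order differed after 48 h. Pola2 had 16.0, 12.3 and 13.5 normalized CPM at 72 h and 12.4, 13.2 and 15.5 at 48 h, an overlap, and its change of 0.03 was not called (edgeR adjusted p = 0.844). Prim1 fell again to 2.91, 3.37 and 4.47 at 72 h, against 12.0, 13.2 and 17.5 at 48 h, a change of -1.98 ± 0.15 (edgeR adjusted p = 8.13e-10). Pola1, Prim1 and Prim2 were left with 5.61%, 6.10% and 7.33% of their 0 h level and Pola2 with 17.9%.

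The polymerases that extend primers had the lowest median of the role groups, with a change of -4.62 at 72 h against 0 h. Pold2, the second subunit of polymerase delta, was the member that fell furthest. It had 28.4, 23.5 and 23.4 normalized CPM at 12 h against 54.6, 50.2 and 50.0 at 0 h, a change of -1.04 ± 0.12 (edgeR adjusted p = 2.62e-07). Pold1, the catalytic subunit, changed by -0.22 over the same step, which was not called. At 72 h Pold2 had 0.950, 0.972 and 1.67, a change of -5.43 ± 0.18 (edgeR adjusted p = 7.25e-17) from 0 h. Every library of the later group lay below every library of the earlier one in both comparisons.

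Pole, the catalytic subunit of polymerase epsilon, and Pole2, its second subunit, changed in opposite directions at 24 h against 0 h. Pole had 127, 116 and 119 normalized CPM at 24 h against 174, 165 and 153 at 0 h, a change of -0.44 ± 0.14 (edgeR adjusted p = 0.00901), and Pole2 changed by 0.70 ± 0.14 (edgeR adjusted p = 0.000127). The call of Pole was lost with rescaled TPM, at -0.30 (adjusted p = 0.142), and that of Pole2 in TPM, at 0.33 (adjusted p = 0.0554). Both then fell, with changes of -5.17 and -4.62 at 72 h against 0 h; Pole2 rested there on only 6 to 9 estimated counts. Pold3, an accessory subunit of polymerase delta, kept 25.0% at 72 h, more than Pold1 (4.17%), Pold2 (2.32%), Pole (2.78%) or Pole2 (4.03%).

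Of the clamp and its loader, Rfc2 and Rfc3 rose first. Rfc2 had 116, 109 and 103 normalized CPM at 12 h against 78.9, 70.5 and 73.4 at 0 h, a change of 0.56 ± 0.09 (edgeR adjusted p = 2.29e-05), and Rfc3 changed by 0.55 ± 0.13 (edgeR adjusted p = 0.00138). Rfc2 went on to 173, 161 and 161 at 24 h, a change of 1.15 ± 0.09 (edgeR adjusted p = 5e-10) against 0 h, whereas Rfc1, the large subunit, and Rfc5 were not called at 24 h against 0 h. The 5 loader subunits act as 1 complex, and their transcripts thus did not change by equal amounts. Exons of Rfc2, Rfc4 and Rfc5 overlap genes on the opposite strand.

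Pcna, the sliding clamp, was not called at 12 h against 0 h (0.05) and then rose. It had 392, 397 and 365 normalized CPM at 24 h against 247, 236 and 228 at 12 h, with no overlap and a change of 0.70 ± 0.13 (edgeR adjusted p = 0.000259), or 0.39 (adjusted p = 0.221) in TPM. After the loss at 36 h (-1.49) the values were 69.6, 46.5 and 55.3 at 72 h and 57.3, 56.1 and 77.0 at 48 h, which overlapped, with a change of -0.15 (edgeR adjusted p = 0.369); in TPM it was called lower, at -0.85 (adjusted p = 0.00776). At 72 h Pcna kept 25.0% of its 0 h level, against 6.78% for Rfc1, 20.5% for Rfc2, 8.0% for Rfc3, 5.25% for Rfc4 and 7.33% for Rfc5. The pseudogene Pcna-ps2 has a row of its own in the tables, at 0 to 1.97 TPM, and reads could be shared between it and Pcna.

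The 3 subunits of RPA, which coats single-stranded DNA in replication and in repair, behaved unlike each other. Rpa1, the large subunit, had 126, 141 and 144 normalized CPM at 72 h, 98.0, 108 and 104 at 48 h and 165, 158 and 157 at 0 h. The 72 h values were all above the 48 h values and all below the 0 h values. The change from 48 h was 0.41 ± 0.07 (edgeR adjusted p = 4.37e-05) (-0.34 in TPM), and that from 0 h was -0.22 ± 0.07 (edgeR adjusted p = 0.00578), which was 0.05 (adjusted p = 0.534) with the size factors of DESeq2 and had an adjusted p of 0.0569 with the compared libraries fitted alone. Rpa2 had 4.24, 5.12 and 5.27 at 72 h against 41.2, 38.4 and 39.7 at 0 h, and Rpa3 had 1.27, 2.07 and 2.14 against 18.8, 20.9 and 18.8. Both smaller subunits lay far below 0 h, at 12.3% and 9.38%, while Rpa1 kept 85.7%.

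Among the enzymes of Okazaki fragment processing, Fen1, the flap nuclease, and Rnaseh2a, the catalytic subunit of RNase H2, kept more transcript than Lig1, the ligase that seals the nicks. Fen1 had 233, 215 and 215 normalized CPM at 24 h against 107, 97.7 and 103 at 0 h, a change of 1.10 ± 0.08 (edgeR adjusted p = 3.22e-10). It was at 43.5, 44.5 and 41.9 at 72 h and 46.1, 47.9 and 50.3 at 48 h, with all 72 h values lower, but the change of -0.15 was not called (edgeR adjusted p = 0.149); in TPM it was called lower, at -0.71 (adjusted p = 0.00213). Lig1 fell over the same step to 5.64, 7.71 and 9.95, against 25.5, 27.9 and 43.5, a change of -2.05 ± 0.19 (edgeR adjusted p = 8.4e-09) with no overlap. At 72 h Fen1 was left with 42.1%, Rnaseh2a with 45.3% and Lig1 with 5.24% of the 0 h level. Exons of Rnaseh2a overlap Prdx2, and those of Fen1 overlap Tmem258, on the opposite strand, so part of their counts could come from these neighbours; this was not tested.

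**Figure D3:**
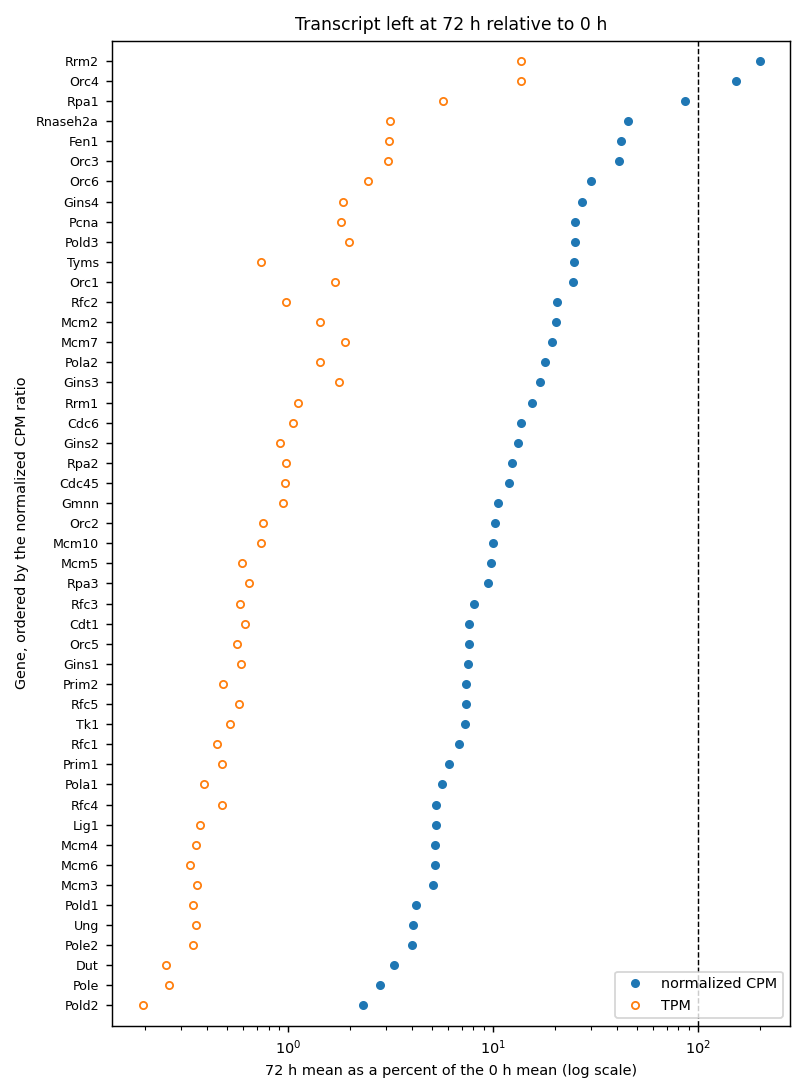
Mean at 72 h as a percent of the mean at 0 h (log axis) for each of the 48 genes, as normalized CPM (filled) and TPM (open), with 3 libraries behind each mean and a dashed line at 100%. Rrm2, Orc4 and Rpa1 stand apart at the top on both scales, at 199%, 153% and 85.7% by normalized CPM but 13.7%, 13.6% and 5.69% by TPM, and Pold2 is lowest on both.

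Rrm2, the regulatory subunit of ribonucleotide reductase that limits the enzyme in S phase, was the member with the largest share of its 0 h level left at 72 h. It had 1304, 1253 and 1245 normalized CPM at 12 h against 714, 657 and 695 at 0 h, a change of 0.88 ± 0.21 (edgeR adjusted p = 0.00156), and 2388, 2268 and 2140.1 at 24 h, a change of 1.72 ± 0.22 (edgeR adjusted p = 6.01e-07) from 0 h. All 12 h and 24 h values were above all 0 h values. At 36 h it fell to 1084, 1295 and 1468, a change of -0.82 ± 0.21 (edgeR adjusted p = 0.00179) from 24 h, beside a members' median of -1.43.

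From then on no further fall of Rrm2 was called on this scale. It had 1104, 1936 and 1779 normalized CPM at 48 h, a change of 0.32 ± 0.21 (edgeR adjusted p = 0.218) from 36 h, or 0.53 (adjusted p = 0.0459) without replicate 1 of 48 h. It had 765, 1643 and 1707 at 72 h, a change of -0.23 ± 0.21 (edgeR adjusted p = 0.372) from 48 h. In TPM these steps were -0.35 and -0.94 (adjusted p = 0.00268), so the last was called lower there. Replicate 1 was the lowest at 36, 48 and 72 h, and the 72 h range spans that of 36 h. Against 0 h, every 72 h library was higher, with a change of 0.99 ± 0.21 (edgeR adjusted p = 0.000209) on this scale and -2.93 in TPM; without replicate 1 of 72 h it was 1.27 on the normalized scale.

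Rrm1, the catalytic subunit, did not stay. It had 59.3, 65.7 and 74.2 normalized CPM at 72 h against 449, 433 and 406 at 0 h, a change of -2.69 ± 0.09 (edgeR adjusted p = 1.48e-16) with no overlap. The TPM ratio of Rrm2 to Rrm1 within a library was 2.92 ± 0.217 at 0 h, 3.87 ± 0.0936 at 12 h, 5.27 ± 0.162 at 24 h, 6.43 ± 1.39 at 36 h, 16.0 ± 5.03 at 48 h and 35.4 ± 8.72 at 72 h (errors are SD over 3 libraries). Its lowest value at 72 h was 26.0 and its highest at 0 h was 3.17. Being a ratio within a library, it does not depend on the scaling between libraries.

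The 48 members together held 6298 ± 124 TPM at 0 h, 7118 ± 52.4 at 12 h, 8070.4 ± 266 at 24 h, 874 ± 169 at 36 h, 457 ± 185 at 48 h and 209.6 ± 68.2 at 72 h (errors are SD over 3 libraries). Rrm2 alone made up 16.4 ± 0.582% of this sum at 0 h, 31.6 ± 0.438% at 24 h, 60.2 ± 6.50% at 48 h and 66.9 ± 7.81% at 72 h. Without Rrm2 the sum was 5263 ± 107 TPM at 0 h, 5519.8 ± 156 at 24 h and 68.1 ± 19.7 at 72 h. By the last time, most of the members' TPM was therefore that of a single gene.

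**Figure D4:**
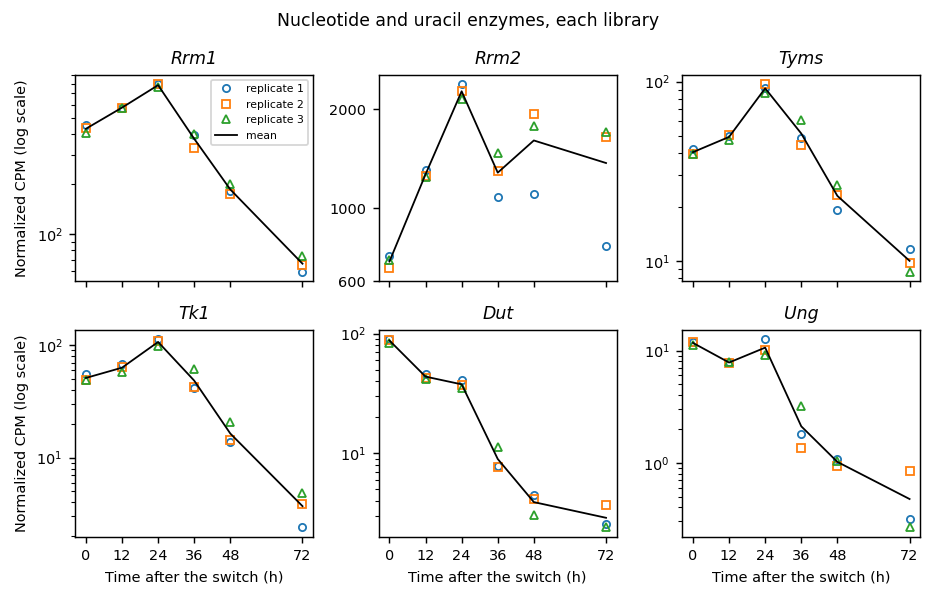
Normalized CPM (log axes, each panel with its own range) of the nucleotide and uracil enzymes against time, with a marker for each replicate and a line through the group means. Rrm1, Tyms and Tk1 peak at 24 h and then fall, Dut falls from the start, and Rrm2 stays above its 0 h values to 72 h (below them in TPM), with replicate 1 lowest from 36 h on.

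The thymidine enzymes rose mostly between 12 h and 24 h. Tyms, which makes dTMP, had 92.1, 97.0 and 85.9 normalized CPM at 24 h against 49.7, 50.2 and 47.4 at 12 h, a change of 0.90 ± 0.11 (edgeR adjusted p = 2.22e-06) and no overlap. Tk1, which salvages thymidine, had 113, 109.5 and 98.0 at 24 h against 68.3, 63.7 and 57.4 at 12 h, a change of 0.76 ± 0.15 (edgeR adjusted p = 0.00041), or 0.44 (adjusted p = 0.08) in TPM. Afterwards they differed: Tk1 fell to 2.41, 3.89 and 4.81 at 72 h, 7.23% of its 0 h level, and Tyms to 11.6, 9.72 and 8.68, 24.8%. In TPM the shares were 0.518% for Tk1 and 0.738% for Tyms, so the tables differ on how much Tyms was left. Exons of Tk1 overlap Afmid on the opposite strand.

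The 2 enzymes that keep uracil out of DNA fell from the first step. Dut, the dUTPase, had 46.4, 42.9 and 41.9 normalized CPM at 12 h against 89.9, 89.0 and 84.1 at 0 h, a change of -1.0 ± 0.12 (edgeR adjusted p = 3.43e-07). Ung, the uracil-DNA glycosylase, had 7.90, 7.72 and 7.85 at 12 h against 12.0, 11.9 and 11.2 at 0 h, a change of -0.58 ± 0.17 (edgeR adjusted p = 0.00559). Neither overlapped, and at 12 h both fell while the other 4 enzymes of the group did not. At 24 h Dut had 41.0, 37.2 and 34.9, a change of -0.21 ± 0.12 (edgeR adjusted p = 0.153) from 12 h; it was called lower with the compared libraries fitted alone, at -0.21 (adjusted p = 0.0237), and in TPM, at -0.55 (adjusted p = 0.00189). Ung had 12.6, 10.2 and 9.07 at 24 h, all above its 12 h values, a change of 0.45 ± 0.17 (edgeR adjusted p = 0.0377) from 12 h, or 0.01 in TPM. That call was lost without any 1 of replicates 1, 2 and 3 of 12 h or replicates 1 and 2 of 24 h, with adjusted p from 0.0664 to 0.213. At 36 h against 24 h both were among the members with the steepest losses, at -2.41 for Ung and -2.10 for Dut beside -0.84 for Tyms and -0.82 for Rrm2. Ung at 72 h rested on 4.49 to 12.8 estimated counts per library, the lowest of any member.

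SA tests what blocked heme synthesis changes at 12 h. Of 48 members 0 were called higher and 0 lower at 12 h with SA against 12 h (0.0162% and 0.364% of all tested genes). edgeR gave 0 in either direction at an unadjusted p under 0.05 too, and DESeq2 called 0. The members' log2 changes ran from -0.13 (Pold1) to 0.22 (Ung), with a median of 0.06 against 0.02 for all tested genes. Their SE lay between 0.063 and 0.212. A change of several SE could still miss the adjusted threshold here: Cdkn1b, a cell cycle inhibitor outside the 48 genes named for this reason after its value was seen, was not called at -0.47 ± 0.12 (edgeR adjusted p = 0.142), though it was with the replicate block, at -0.47 (adjusted p = 0.0271), with the compared libraries alone, at -0.49 (adjusted p = 0.000323), and with DESeq2, at -0.48 (adjusted p = 0.0171).

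Cdc6 had 179, 171 and 174 normalized CPM at 12 h with SA and 179.8, 169.6 and 173 at 12 h without it. The values overlapped fully, although Cdc6 had risen more than any other member since 0 h. Rrm2 had 1373, 1393 and 1328 with SA and 1304, 1253 and 1245 without it. The SA values were all higher, but its change of 0.11 was not called, with an SE of 0.21 (edgeR adjusted p = 1). Ung had 9.15, 9.42 and 8.75 with SA against 7.90, 7.72 and 7.85 without it, also without overlap and also not called (edgeR adjusted p = 0.976). In TPM the members summed to 7596 ± 113 with SA and 7118 ± 52.4 without it (errors are SD over 3 libraries). The Rrm2 to Rrm1 ratio was 4.34 ± 0.00284 with SA and 3.87 ± 0.0936 without it. Neither measure overlapped between the groups, and neither was tested. The Gmnn to Cdt1 and MCM ratios overlapped. In TPM the median of all tested genes moved by 0.05 with SA, beside 0.09 for the members, and 0 members were called.

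**Figure D5:**
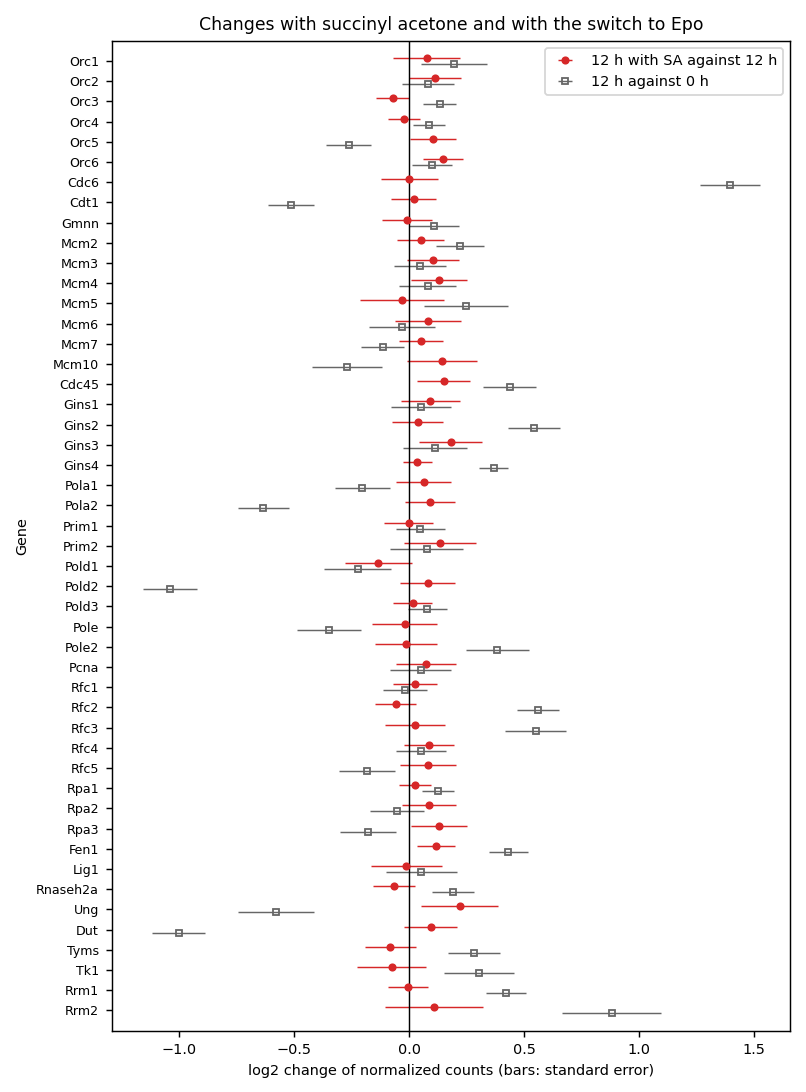
log2 change of normalized counts of each gene at 12 h with SA against 12 h (filled red) and at 12 h against 0 h (open grey), with bars for the standard error and 3 libraries per group. All red points lie between -0.13 and 0.22, while the grey points reach from -1.04 (Pold2) to 1.39 (Cdc6).

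Other genes of DNA replication and nucleotide supply were counted in the same way. Of 31 further replication factors, 27 were lower and 2 higher at 36 h against 24 h (39% and 34.1% of all tested genes), and 28 were lower and 3 higher at 72 h against 0 h (46.5% and 43.3%), with a median of -3.43. Timeless, a fork protection protein, fell most at 36 h, with a change of -2.03 ± 0.08 (edgeR adjusted p = 1.7e-14) and a mean of 17.3 normalized CPM at 36 h against 70.7 at 24 h. The exceptions at 72 h were Top1, the topoisomerase that relieves supercoils (1.31), Donson (1.11) and Pold4, the smallest subunit of polymerase delta (0.41), all on the normalized CPM scale; in TPM they were -2.55, -2.23 and -2.36. The call of Pold4 was lost without replicate 1 of 0 h, at 0.32 (adjusted p = 0.0623), and without replicate 2 of 72 h, at 0.21 (adjusted p = 0.221).

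The genes listed for nucleotide synthesis outside the 48 genes were mostly lower by 12 h. Their list includes Samhd1, which breaks down deoxynucleotides. It was among those lower at 24 h against 0 h (-0.37, edgeR adjusted p = 0.0388). Of 28 such genes 17 were lower and 4 higher (Ctps2, Dck, Mthfd2 and Rrm2b) at 12 h against 0 h (27.6% and 25.3% of all tested genes), with a median of -0.51 beside 0.08 for the members. At 24 h against 0 h 20 were lower and 3 higher (33.9% and 32.1%), with a median of -0.82 beside 0.40 (-1.17 beside 0.05 in TPM). Dhodh, which makes orotate for pyrimidines, was at a mean of 4.43 normalized CPM at 24 h against 28.3 at 0 h, a change of -2.67 ± 0.14 (edgeR adjusted p = 7.2e-13). Dctd, the dCMP deaminase, changed by -4.80 ± 0.25 (edgeR adjusted p = 6.11e-13). Mthfd2, a mitochondrial folate enzyme, and Dck, which salvages deoxycytidine, rose by 2.90 and 1.66.

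Samhd1, which breaks down deoxynucleotides and so works against ribonucleotide reductase, rose at 36 h. It had a mean of 458 normalized CPM at 36 h against 75.0 at 24 h, a change of 2.61 ± 0.16 (edgeR adjusted p = 9.41e-12), and 621 at 72 h. Rrm2b, the other small subunit of ribonucleotide reductase, known from quiescent cells, had a mean of 14.6 at 12 h against 7.73 at 0 h, a change of 0.91 ± 0.10 (edgeR adjusted p = 1.13e-07), but 5.0 at 72 h.

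Of 12 genes for copying mitochondrial DNA, 11 were tested, and 8 were lower and 2 higher at 12 h against 0 h (27.6% and 25.3% of all tested genes), with a median of -0.75. Polg, the catalytic subunit of the mitochondrial polymerase, had a mean of 77.9 normalized CPM at 12 h against 211 at 0 h, a change of -1.44 ± 0.14 (edgeR adjusted p = 1.59e-08). With SA, Tk2, the mitochondrial thymidine kinase, was the gene of this list called lower, and Mthfd2 the one of the nucleotide list. Their changes were -0.52 ± 0.10 (edgeR adjusted p = 0.0194) and -0.64 ± 0.11 (edgeR adjusted p = 0.0111). Each of these calls was lost when replicate 1, 2 or 3 with SA or replicate 2 or 3 without it was left out, with adjusted p from 0.0931 to 0.135 for Tk2 and from 0.0662 to 0.084 for Mthfd2. In TPM they were -0.36 (adjusted p = 0.475) and -0.57 (adjusted p = 0.33).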

How the data were processed

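RNA from 21 libraries of MEDEP cells in 7 groups of 3 was measured by strand-specific sequencing, per the labels' protocols. The authors deposited a table of estimated counts per gene, not scaled for depth (78.5% whole numbers, tolerance 1e-06), and a table of TPM per gene. kallisto, STAR 2.5.3a and DESeq2 were used, per the submitters' processing notes, with builds GRCm38.p5 and mm10; which tool made which table, and whether counting used strand, is not given in the sources used here. Estimated counts were rounded. Genes were kept by filterByExpr (minimum count 10), scaled by TMM and fitted over all 21 libraries in 1 edgeR 4.0.16 quasi-likelihood model (R 4.3.3), with 2-sided tests and Benjamini-Hochberg adjustment over 12360 genes at 0.05. The SE was taken as the size of the change over √F and is approximate.

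Alternatives were DESeq2 1.42.0 (size factors and Wald test), limma 3.58.1 on log2(TPM + 1) (9525 genes averaging 1 TPM or more), as deposited and rescaled between libraries, no filter on counts, globin genes left out of library sizes, the compared libraries alone, the replicate block, and each library left out. Libraries of 1 group differed by more than sampling noise (chi-square per gene 6.03 to 244). Same-numbered replicates deviated together (r above 0.1 in all 3 pairs, 5673 genes) at 24 h and 12 h, 48 h and 36 h, 72 h and 48 h, and 12 h with and without SA; what the number stands for is not in the labels. Any member could be named, with full statistics for the largest changes of a role group and for members that went against their group. Other members were added after their values were seen. Of other lists a few called genes per direction and comparison are named, and some are left unnamed even where few were called. The 48 members and all lists were chosen with earlier results of these data known. Exon overlaps were read from GENCODE M21 (GRCm38): 14 members overlap another protein-coding gene. They are Orc2, Orc4, Orc6, Mcm7, Cdc45, Gins2, Pole2, Rfc2, Rfc4, Rfc5, Fen1, Lig1, Rnaseh2a and Tk1. The longest overlap is that of Gins2, 2758 bases with Gse1. Pole2 and Rnaseh2a each overlap a gene on the same strand. Promoters come from RefSeq (GRCm38.p6); 8 members had none in that table and no sequence is shown for them.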

Additional observations from a re-analysis of the deposited data

How the results depend on the processing

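With the compared libraries fitted alone, 21 members were higher and 10 lower at 12 h over 0 h (34.9% and 35.3% of all genes). The fit of all libraries gave 11 and 7. At 24 h over 12 h, 35 were higher and 4 lower (26.3% and 30.3%), against 22 and 2. At 72 h over 48 h, 31 were lower (26.5%), against 39. That last count was 34 with DESeq2 size factors (3627 of 12360 genes), with the DESeq2 Wald test (3674) and with rescaled TPM (3442 of 9525). In TPM it was 43 (59.3%). With limma on log2(TPM + 1) the members called higher numbered 5 at 12 h over 0 h (20.9% of all genes), 1 for 24 h over 12 h (6.32%) and 9 for 24 h over 0 h (18.8%), and there were 0 for 36 h over 24 h (4.3%), for 72 h over 48 h (4.59%) and for 72 h over 0 h (5.26%); those called lower numbered 5 at 24 h over 12 h (45%) and 13 at 24 h over 0 h (52.7%). With no count filter 1 member was higher at 36 h over 24 h (22.9% of all genes) and 1 at 72 h over 48 h (14.6%). Leaving out 1 library at a time gave 1 to 2 members lower at 24 h over 12 h (1 without replicate 1 of 24 h), 1 to 2 higher at 36 h over 24 h (1 without replicate 1 or 3 of 24 h or 1 or 2 of 36 h), 0 to 1 higher at 48 h over 36 h (1, Rrm2, without replicate 1 of 48 h), and 1 to 2 higher at 72 h over 48 h (1 without replicate 2 of 48 h or of 72 h). The larger counts moved more. At 24 h over 12 h, 15 members were higher without replicate 1 of 24 h (2100 of 12645 genes). Leaving out another library gave 17 to 20 (1919 to 2051 genes). At 72 h over 48 h, 34 were lower without replicate 1 of 72 h (4012 of 12542 genes). Leaving out another gave 35 to 37 (4029 to 4239 genes). At 12 h over 0 h, 9 to 10 were higher and 5 to 6 lower (2786 to 2889 and 3014 to 3139 genes). Over all members the refits without 1 library took away 85 calls and added 6, and 0 changed direction. Of the 384 gene-by-comparison results, 17 turned round on the TPM scale, where the median of all genes moves. Among named results the TPM values were -1.75 (Orc3) and -1.35 (Orc4) at 36 h over 24 h, -0.63 (Orc4) at 48 h over 36 h, -0.43 (Orc4) and -0.34 (Rpa1) at 72 h over 48 h, and -2.74 (Orc4), -2.93 (Rrm2), -2.23 (Donson), -2.36 (Pold4) and -2.55 (Top1) at 72 h over 0 h. Rpa1 at 72 h over 0 h was 0.0463 with DESeq2 size factors, 0.0459 with DESeq2 itself and 0.0476 with rescaled TPM. Mcm7 at 72 h over 48 h was called higher with limma on rescaled TPM, at 0.38 (adjusted p = 0.00273). At 12 h over 0 h the calls of Orc5, Pole, Pole2 and Tyms were each lost when any of several single libraries was left out, with adjusted p up to 0.134. With the replicate block 26 members were higher at 24 h over 12 h (2510 of 12360 genes) and 45 lower at 48 h over 36 h (3762 genes). Without the block these were 22 members (2358 genes) and 44 members (3676 genes). The block moved no other count of members by more than 1. Of the 384 calls 1 was lost and 6 were gained. That samples with the same number belong together rests on the data, not on the labels. Low counts limit Ung, Pole2 and Gins1 at 72 h.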

Other observations

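Genes of G2 and mitosis had their steepest median loss later in the course. Of 24 such genes, 17 were higher and 1 lower at 12 h against 0 h (25.3% and 27.6% of all tested genes), with a median log2 change of 0.58 beside 0.08 for the 48 replication genes. At 36 h against 24 h, 13 were lower and 1 higher (39% and 34.1%), with a median of -0.38 beside -1.43; at 72 h against 48 h, 22 were lower and 2 higher (34.5% and 24.7%), with a median of -1.91 beside -1.12. Aurka, a mitotic kinase, rose by 1.45 at 12 h against 0 h, and Aurkb, another, changed by -2.49 at 72 h against 48 h. Pttg1 (securin) had a mean of 35.6 normalized CPM at 36 h against 8.12 at 24 h, a change of 2.14 ± 0.15 (edgeR adjusted p = 5.61e-11) that was 0.14 (adjusted p = 0.57) in TPM.

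Regulators of S phase genes moved both ways. E2f2 had a mean of 565 normalized CPM at 24 h against 34.7 at 0 h, a change of 4.02 ± 0.11 (edgeR adjusted p = 3.82e-17). E2f1 had 12.0 at 36 h against 54.0 at 24 h, a change of -2.19 ± 0.15 (edgeR adjusted p = 3.43e-11), and Ccnd3 (cyclin D3) changed by -2.07 over the same step. Cdkn1b (p27), an inhibitor of cyclin-dependent kinases, had 554 at 36 h against 47.3 at 24 h, a change of 3.55 ± 0.13 (edgeR adjusted p = 8.58e-15). Of the 28 regulators, 19 were higher and 6 lower at 24 h against 0 h (32.1% and 33.9% of all tested genes), and 7 higher and 16 lower at 36 h against 24 h (34.1% and 39%).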
